A study of Rattus norvegicus with 8 samples.

Results

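Cyclic nucleotide signalling genes were followed in the fetal rat testis after dibutyl phthalate, a plasticiser, was given to the mother. The members were 82 of the 14217 genes that the array names by a single symbol, taken by a rule on gene names: the phosphodiesterases (Pde), adenylyl cyclases (Adcy), guanylyl cyclases (Gucy), subunits of the cAMP-dependent and cGMP-dependent protein kinases PKA and PKG (Prkar, Prkac, Prkg), A-kinase anchoring proteins (Akap), regulators of G protein signalling (Rgs) and Gnas. The DBP group held testes of male Fischer 344 fetuses whose dams received 50 mg/kg dibutyl phthalate by gavage once a day, beginning at gestational day 12 and ending at day 20 (n = 4 arrays). The vehicle group held testes of the same strain and age whose dams received corn oil on the same days, at 1 ml/kg (n = 4 arrays). All testes were collected 6 hours after the last dose, and 1 Affymetrix expression array was run per sample. The labels do not say whether the samples of a group came from separate litters or how many testes each holds, so p-values measure the spread between these samples only.

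In this pathway a hormone receptor coupled to the stimulatory G protein, whose alpha subunit Gnas encodes, switches on an adenylyl cyclase. The cAMP made binds the regulatory subunits of PKA and frees its catalytic subunits, A-kinase anchors hold the kinase near its substrates, and phosphodiesterases break cAMP and cGMP down. RGS proteins shorten the active state of G protein alpha subunits. In Leydig cells of the adult testis, luteinising hormone drives testosterone synthesis through cAMP and PKA. In germ cells, anchors and a soluble adenylyl cyclase belong to the tail and motility machinery of sperm.

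The member that passed the test was Prkar2b, the RII-beta regulatory subunit of PKA, and the members that came nearest without passing were Adcy3 and Pde4b. The upstream bases of the start sites of Prkar2b and Pde4b are shown, and those of Akap17a because it was the member with a full cAMP response element. Prkar2b and Pde4b had higher signal on all 4 DBP arrays than on any vehicle array. So did Pde4c, Gucy2c and Adcy8, and of these 5 members Prkar2b and Pde4b had the smallest p-values. They are RefSeq sequences of the rat genome build GRCr8, each 5′ to 3′ on the strand of its gene. The Prkar2b and Pde4b windows are 250 bases long and end at the base before the transcription start, while the Akap17a stretch is 48 bases cut from such a window around its element and does not reach the start. Capitals mark the full element TGACGTCA. Prkar2b lies on the minus strand at chr6:54381412-54381661, Pde4b has its starts on the plus strand at chr5:122028706-122028955 and chr5:122222323-122222572, and the Akap17a stretch lies on the minus strand at chr12:21428432-21428479.
Prkar2b: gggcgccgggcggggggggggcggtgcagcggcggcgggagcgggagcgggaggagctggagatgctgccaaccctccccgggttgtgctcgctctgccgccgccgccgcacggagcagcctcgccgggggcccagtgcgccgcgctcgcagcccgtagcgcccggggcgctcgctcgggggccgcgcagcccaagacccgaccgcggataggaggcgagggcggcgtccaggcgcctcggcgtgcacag
Pde4b, first start: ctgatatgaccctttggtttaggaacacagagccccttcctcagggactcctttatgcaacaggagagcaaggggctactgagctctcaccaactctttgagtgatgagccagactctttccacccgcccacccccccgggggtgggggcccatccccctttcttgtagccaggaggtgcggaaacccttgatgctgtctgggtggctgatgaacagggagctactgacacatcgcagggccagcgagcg
Pde4b, second start: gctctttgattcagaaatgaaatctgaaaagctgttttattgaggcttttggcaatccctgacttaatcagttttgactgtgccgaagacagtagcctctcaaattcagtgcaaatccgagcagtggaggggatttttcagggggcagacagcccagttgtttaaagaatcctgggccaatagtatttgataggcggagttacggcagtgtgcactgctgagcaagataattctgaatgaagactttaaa
Akap17a: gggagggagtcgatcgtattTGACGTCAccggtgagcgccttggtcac
The Prkar2b window was 80.8% G and C with 39 CpG dinucleotides, while the Pde4b windows were 58.8% and 43.2% G and C with 6 and 4. Upstream windows of 250 bases were at hand for 66 of the 82 members. The full element TGACGTCA, which is its own reverse complement, occurred in 1 of these 66 (1.52%), against 490 of 27457 genes (1.78%). The core TGACG, read on both strands and contained in the full element, occurred in 12 of 66 members (18.2%), against 5480 of 27457 genes (20.0%). The windows of Prkar2b and Pde4b held neither, which says only that these letters were not in these bases.

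The values are log2 signals after robust multi-array averaging (RMA), so a difference of 1 is a doubling, and they do not compare one gene with another. RNA integrity numbers lay between 8.6 and 8.8, array medians between 6.08 and 6.13, and correlations between arrays between 0.991 and 0.998, with no 2 arrays identical. Markers of the labelled tissue were present on every array: 8 Leydig genes averaged 10.38 to 10.58 in DBP testes and 10.56 to 10.65 in vehicle testes, and 6 Sertoli genes, whose group means did not overlap, averaged 10.81 to 10.98 in DBP and 10.76 to 10.80 in vehicle. List means for interstitial stroma, peritubular myoid cells, endothelium, macrophages and adrenal tissue overlapped between the groups. Single markers differed all the same. All 9 macrophage genes had changes above 0, as 57.3% of all genes did, and 2 had groups apart. Plvap, 1 of 6 endothelial genes measured, was higher by 0.36 (limma adjusted p 0.0471). Of the 8 Leydig genes, 3 lay lower and 1 higher on every DBP array than on any vehicle array, against 5.56% and 7.31% of all genes. In whole testes, fewer cells of a type and less RNA per cell cannot be told apart.

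DBP arrays stood apart in several ways. The poly-A spike-ins, bacterial RNAs added to the sample before labelling, averaged 7.17, 6.68, 4.84 and 4.79 in DBP replicates 1 to 4, against 6.59, 6.46, 6.53 and 6.79 in vehicle replicates 1 to 4, so DBP 3 and 4 were low. The SD of all signals on an array was 2.19 on DBP 3 and 2.18 on DBP 4, and 2.23 to 2.25 on the other arrays. DBP 4 also carried transcripts of haploid spermatids, cells that a fetal testis does not yet hold. Prm1, the protamine that packs sperm DNA, read 4.68, 4.47, 5.80 and 9.07 in DBP testes, against 4.66, 4.63, 4.48 and 4.78 in vehicle testes. The mean of a list of 14 spermatid genes, drawn up after their values were seen, was 4.63, 4.57, 5.04 and 6.87 in DBP testes, against 4.56, 4.58, 4.54 and 4.59 in vehicle testes. DBP 4 was thus far above every other array on this list and DBP 3 was slightly above. On DBP 4, 199 probe sets lay more than 0.5 above all other arrays, and on the other 7 arrays between 1 and 16 did. In the other direction, 119 probe sets on DBP 2, 36 on DBP 3 and 74 on DBP 4 lay more than 0.5 below all other arrays, against 1 on DBP 1 and 0 or 1 on each vehicle array, and no member was among them. DBP 1 and 2 were high in red cell transcripts: 7 measured genes of a list of 8 averaged 9.37, 9.27, 8.63 and 8.61 in DBP, against 8.69, 8.92, 8.54 and 8.66 in vehicle. Slc4a1, the red cell anion exchanger, read 8.10, 7.79, 6.25 and 6.42 in DBP, against 6.54, 7.05, 6.46 and 6.70 in vehicle, so only DBP 1 and 2 lay above the vehicle range. Hba-a3, a haemoglobin gene of the list, read 12.02, 12.01, 11.90 and 11.96 in DBP, against 11.75, 11.86, 11.58 and 11.59 in vehicle. Its 4 DBP arrays were all above the vehicle range. The part of these differences in the results was not tested, and results are given with and without these arrays for some members only.

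Few of the 82 genes differed between the groups by more than the spread between arrays. With limma and Benjamini-Hochberg adjustment over all 31042 probe sets, 1 member passed an adjusted p of 0.05, Prkar2b, which is 1.22% of the members, against 1.22% of all genes (174 of 14217) and 0.598% of genes called higher. At an unadjusted p under 0.05 there were 13 members (15.9%), 7 higher and 6 lower in DBP, against 19.1% of all genes, 11.3% higher and 7.84% lower. The members' 44 other, dimmer probe sets had none past the adjusted test and 8 at an unadjusted p under 0.05, 1 higher (Rgs17) and 7 lower (2 of Gnas and 1 each of Adcy6, Akap1, Akap10, Akap12 and Akap13), against 18.2% of all probe sets, 9.39% higher and 8.86% lower. On 10 members the 4 DBP arrays did not overlap the 4 vehicle arrays (12.2%), 5 higher and 5 lower, against 12.9% of all genes, 7.31% higher and 5.56% lower. By their representing probe sets, the shares of members were close to or below those of all genes. The 44 other probe sets had a larger share lower and a smaller share higher than all probe sets, a difference that was not tested. The median log2 change, DBP minus vehicle, was 0.04 over the members and 0.02 over all genes, and 69 of the 82 members changed by less than 0.2 in either direction. The DBP arrays were more spread than the vehicle arrays, with a median SD of 0.118 in DBP and 0.0688 in vehicle over the members, and of 0.119 in DBP and 0.0656 in vehicle over all genes.

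**Figure D1:**
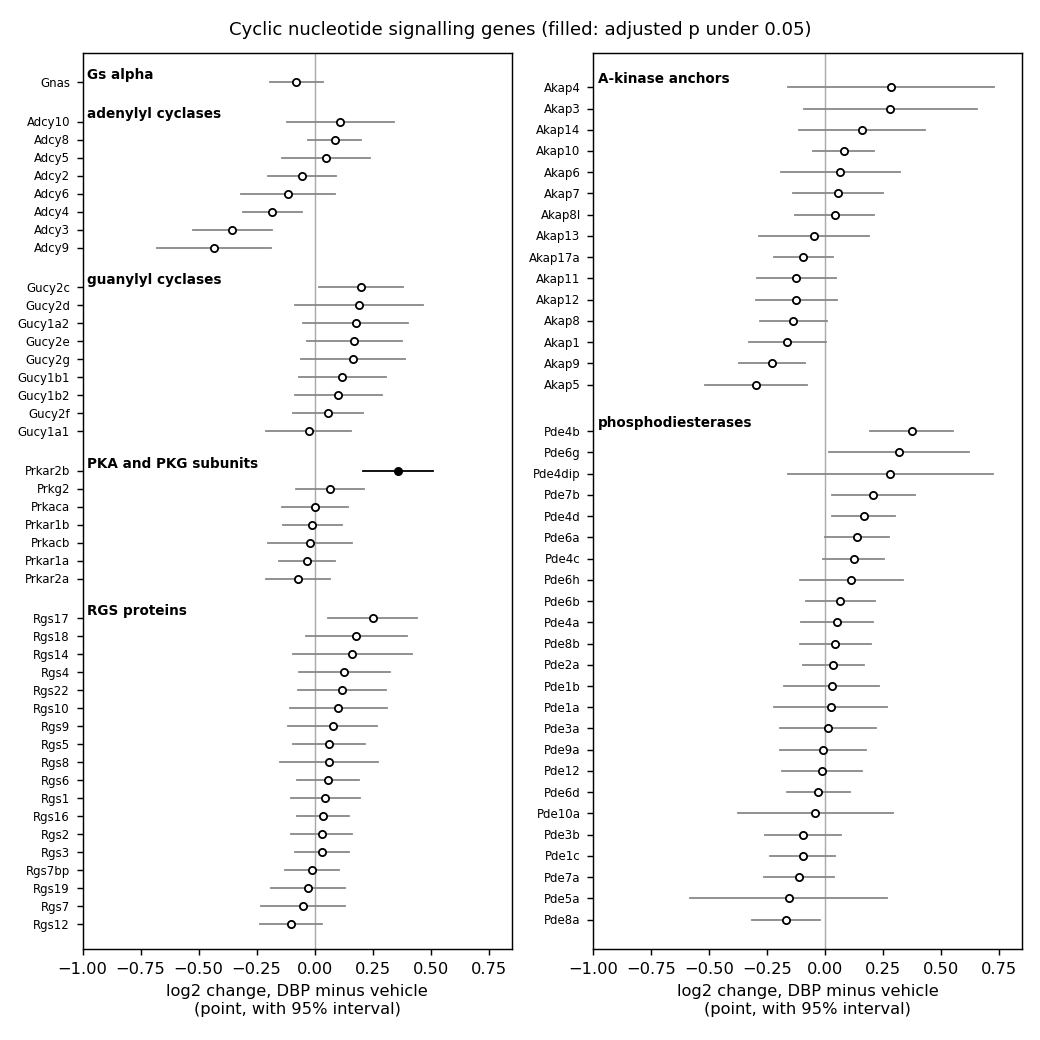
Log2 change of each of the 82 members, DBP minus vehicle, by role, with the 95% interval of the limma fit over 8 arrays. The filled point is Prkar2b, at 0.36, the 1 member past an adjusted p of 0.05, and most other intervals cross 0.

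The counts shifted with the DBP arrays used. Without DBP 4, 3 members passed an adjusted p of 0.05 (Prkar2b and Pde4b higher, Adcy9 lower), which is 3.66% of the members, against 1.26% of all genes. Without DBP 2, 2 passed (Prkar2b higher, Adcy3 lower), 2.44% of the members against 2.31% of all genes. With DBP 1 and 2 alone against the 4 vehicle arrays, 2 passed (Prkar2b and Pde4b), 2.44% of the members against 1.67% of all genes. With DBP 3 and 4 alone, 11 passed, 6 higher and 5 lower, 13.4% of the members against 12.8% of all genes. The higher ones were Prkar2b, Gucy1a2, Gucy2e, Pde6g, Pde6h and Rgs14. The lower ones were Adcy3, Akap5, Akap8, Akap9 and Pde5a. Prkar2b was among those called in each of these sets of arrays.

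Among the 7 kinase subunits, Prkar2b rose and none of the other 6 passed the test. Prkar2b, which binds and holds back the PKA catalytic subunits until cAMP arrives, read 9.46, 9.59, 9.35 and 9.35 in DBP testes, against 9.13, 9.02, 9.11 and 9.05 in vehicle testes. All 4 DBP values were above all 4 vehicle values. The means were 9.44 ± 0.11 in DBP and 9.08 ± 0.05 in vehicle (SD, n = 4 each), a log2 change of 0.36 ± 0.07 (SE, 95% interval 0.21 to 0.51), or 1.28-fold, with a limma adjusted p of 0.037. The change was 0.45 with DBP 1 and 2 alone (adjusted p 0.0175) and 0.27 with DBP 3 and 4 alone (adjusted p 0.03). Prkar2b was highest on DBP 1 and 2, the arrays high in red cell transcripts. On DBP 3 and 4, the arrays low in spike-ins and with the red cell list mean at the vehicle level, Prkar2b was also above every vehicle array. So was the red cell gene Hba-a3. The part of these array differences in the Prkar2b change was not tested. The call was lost without DBP 1 (adjusted p 0.0796) and without any one of vehicle 1 to 4 (adjusted p between 0.0981 and 0.123), while the change stayed between 0.31 and 0.39 over all 8 omissions. Prkar2b has 1 probe set on the array, of a type that can match several transcripts of a gene.

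The other PKA subunits did not pass the test, and on Prkacb the DBP arrays split to both sides of vehicle. Prkar1a, the RI-alpha regulatory subunit, read 11.17, 11.26, 11.13 and 11.15 in DBP, against 11.17, 11.20, 11.21 and 11.26 in vehicle, a log2 difference of -0.03 (95% interval -0.15 to 0.09). Prkar1b, the RI-beta subunit, averaged 8.10 ± 0.08 in DBP and 8.11 ± 0.02 in vehicle (SD, n = 4 each). Prkar2a, the RII-alpha subunit, read 9.76, 9.91, 9.68 and 9.72 in DBP, against 9.82, 9.83, 9.84 and 9.86 in vehicle, a difference of -0.07 (-0.21 to 0.07). The intervals of these regulatory subunits all included 0 and lay below the Prkar2b estimate, although the differences between subunits were not tested. Prkaca, a catalytic subunit, differed by 0.00 (-0.14 to 0.14). Prkacb, the other catalytic subunit, read 10.29, 10.39, 10.05 and 10.05 in DBP, against 10.18, 10.24, 10.22 and 10.22 in vehicle, so DBP 1 and 2, high in red cell transcripts, were above the vehicle range and DBP 3 and 4 below it. DBP 3 and 4 were below the vehicle range on its 2 dimmer probe sets too, with 6.93, 6.96, 5.90 and 6.16 in DBP and 6.72, 6.60, 6.71 and 6.63 in vehicle on the dimmest. Prkg2, a cGMP-dependent kinase, was dim and differed by 0.07 (adjusted p 0.597).

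**Figure D2:**
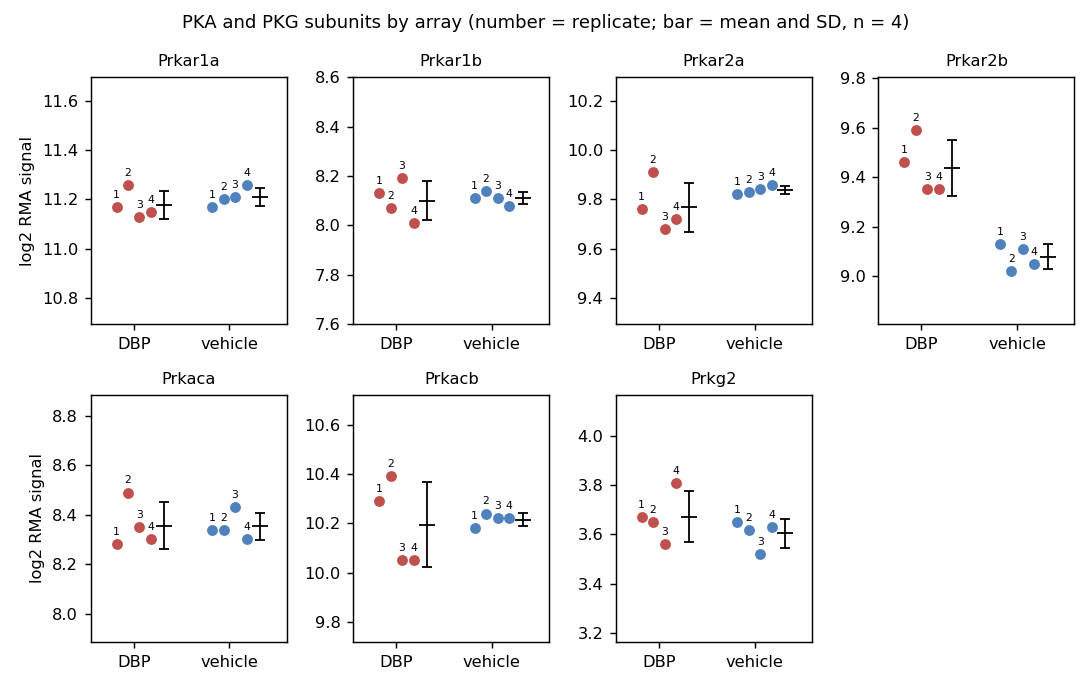
Log2 signal of the PKA and PKG subunits by array, DBP left and vehicle right, each point 1 array numbered by replicate and the bar the mean and SD of 4 arrays. The axes span different levels, and the groups are apart for Prkar2b alone, at 9.35 to 9.59 in DBP and 9.02 to 9.13 in vehicle.

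Gnas, the stimulatory G protein alpha subunit, had its 3 probe sets lower on every DBP array than on any vehicle array, and none passed the adjusted test. The brightest, which represents the gene here, read 13.06, 13.15, 13.07 and 13.07 in DBP, against 13.16, 13.19, 13.16 and 13.16 in vehicle, a log2 difference of -0.08 (95% interval -0.19 to 0.03, adjusted p 0.422). The second read 7.29, 6.73, 7.35 and 7.49 in DBP, against 7.79, 7.75, 7.89 and 7.52 in vehicle, a difference of -0.52 (-0.85 to -0.19, adjusted p 0.122). The dimmest read 5.70, 4.99, 5.36 and 5.81 in DBP, against 6.20, 6.10, 6.24 and 5.82 in vehicle, a difference of -0.62 (-0.99 to -0.26, adjusted p 0.108). DBP 2 was the lowest array on both dimmer probe sets, and on both DBP 4 lay within 0.03 of vehicle 4. The mean of the 3 Gnas probe sets differed by -0.41 (adjusted p 0.0792). The Gnas locus gives rise to several transcripts, and which of them each probe set reads is not annotated in the files.

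**Figure D3:**
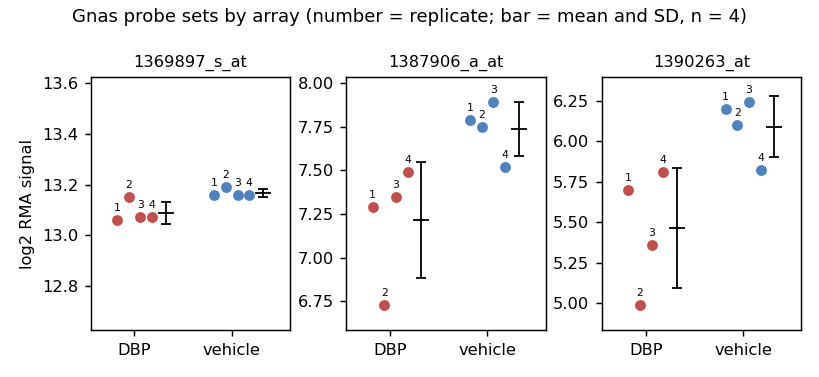
Log2 signal of the 3 Gnas probe sets by array, DBP left and vehicle right, with the mean and SD of 4 arrays. The groups are 0.08 apart on the brightest probe set and 0.52 and 0.62 apart on the others, with DBP lower on each.

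None of the 8 adenylyl cyclases, the enzymes that make cAMP, passed the adjusted test. At an unadjusted p under 0.05, 3 were lower in DBP (7.84% of all genes were) and none was higher, and the median change was -0.08. Adcy3 read 7.38, 7.49, 7.20 and 7.16 in DBP, against 7.66, 7.65, 7.67 and 7.67 in vehicle. The 4 vehicle arrays lay within 0.02 of each other and every DBP array was below them. The log2 difference of Adcy3 was -0.36 ± 0.08 (SE, 95% interval -0.52 to -0.19, limma adjusted p 0.062). It was -0.23 with DBP 1 and 2 alone and -0.48 with DBP 3 and 4 alone (adjusted p 0.0985 and 0.00672), and -0.42 without DBP 2 (adjusted p 0.0225). Adcy9 read 4.80, 4.81, 4.68 and 5.15 in DBP, against 5.46, 5.09, 5.23 and 5.40 in vehicle, with DBP 4 above vehicle 2. Its difference was -0.43 ± 0.11 (SE, adjusted p 0.1005), and without DBP 4 it was -0.53 (adjusted p 0.0285). Adcy4 read 5.88, 5.94, 5.83 and 6.0 in DBP, against 6.12, 6.06, 6.08 and 6.12 in vehicle, a difference of -0.18 (adjusted p 0.153) with the groups apart. Adcy2, the cyclase of highest signal here, averaged 9.26 ± 0.11 in DBP and 9.32 ± 0.04 in vehicle (SD, n = 4 each), and Adcy8, of lowest signal, averaged 3.14 ± 0.04 in DBP and 3.05 ± 0.02 in vehicle.

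Among the 24 genes under the phosphodiesterase prefix none passed the adjusted test. At an unadjusted p under 0.05, 4 were higher (11.3% of all genes were) and 1 was lower, and the median change was 0.03. Pde4b, a cAMP-specific phosphodiesterase, read 7.07, 7.23, 7.03 and 6.82 in DBP, against 6.67, 6.64, 6.65 and 6.70 in vehicle. All DBP values lay above the vehicle values, DBP 4 by the least. Its log2 difference was 0.37 ± 0.08 (SE, 95% interval 0.19 to 0.55), or 1.29-fold, with a limma adjusted p of 0.063, and 0.45 without DBP 4 (adjusted p 0.0147). It was 0.48 with DBP 1 and 2 alone, high in red cell transcripts (adjusted p 0.0136), and 0.26 with DBP 3 and 4 alone (adjusted p 0.0518). A second, dimmer Pde4b probe set differed by 0.06 (adjusted p 0.759), and the mean of both by 0.21 (adjusted p 0.177). Pde4d, of the same family, read 6.52, 6.58, 6.47 and 6.36 in DBP, against 6.29, 6.29, 6.32 and 6.37 in vehicle, a difference of 0.17 (adjusted p 0.212) in which DBP 4 overlapped the vehicle arrays. Pde7b, also cAMP-specific, read 4.17, 4.31, 4.28 and 4.50 in DBP, against 4.02, 4.03, 4.19 and 4.19 in vehicle (difference 0.21, adjusted p 0.222).

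Pde8a, a high-affinity cAMP phosphodiesterase that restrains steroidogenesis in mouse Leydig cells, read 8.08, 8.14, 7.97 and 8.22 in DBP, against 8.29, 8.25, 8.33 and 8.22 in vehicle. DBP 4 equalled vehicle 4 and the other 3 DBP arrays were below all vehicle arrays, a difference of -0.17 (adjusted p 0.222). Its relative Pde8b differed by 0.04 (adjusted p 0.762), and Pde2a, which cGMP stimulates to break down cAMP, by 0.04 (adjusted p 0.778). Pde5a, which breaks down cGMP, read 6.54, 6.86, 5.82 and 6.10 in DBP, against 6.55, 6.26, 6.52 and 6.62 in vehicle. DBP 1 lay inside the vehicle range, DBP 2 above it, and DBP 3 and 4 below it. The change was 0.21 with DBP 1 and 2 alone (adjusted p 0.434) and -0.53 with DBP 3 and 4 alone (adjusted p 0.026). The photoreceptor subunit Pde6g read 5.18, 5.20, 5.80 and 5.40 in DBP, against 4.86, 5.21, 5.02 and 5.22 in vehicle, a difference of 0.32 (adjusted p 0.256) in which DBP 3 was highest. Pde6d had the highest signal under the prefix, 8.30 ± 0.09 in DBP and 8.33 ± 0.04 in vehicle (SD, n = 4 each), and Pde6a, a photoreceptor catalytic subunit, the lowest. Pde6a read 3.18, 3.21, 3.16 and 3.33 in DBP, against 3.16, 3.07, 3.0 and 3.11 in vehicle (difference 0.14, adjusted p 0.282), with DBP 3 level with vehicle 1.

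**Figure D4:**
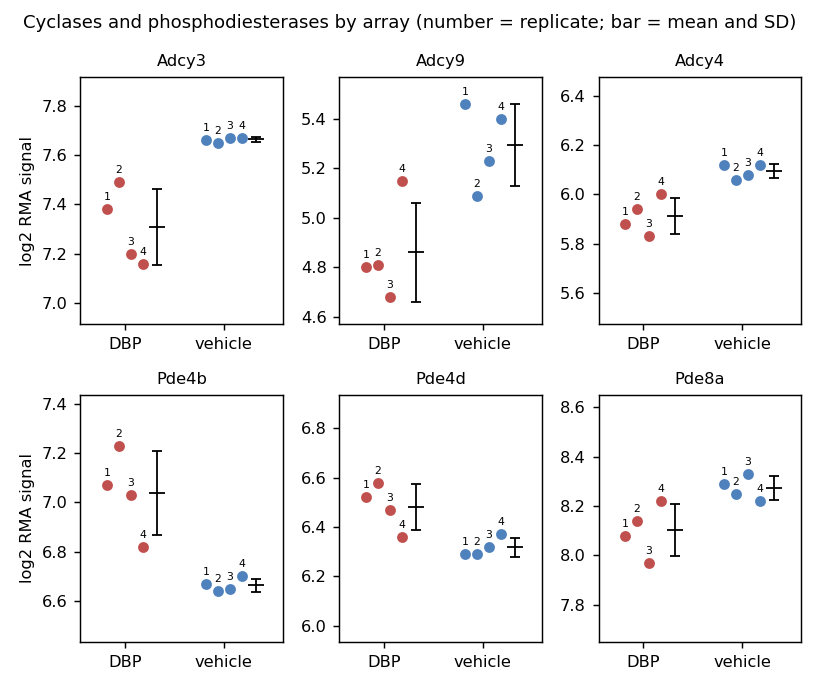
Log2 signal of 3 adenylyl cyclases and 3 phosphodiesterases by array, DBP left and vehicle right, with the mean and SD of 4 arrays. Adcy3 and Adcy4 lie lower and Pde4b higher in DBP with no overlap, and none of the 6 passed an adjusted p of 0.05.

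The 9 guanylyl cyclases, which make cGMP, had 8 changes above 0 and a median of 0.17, with none past the adjusted test and 1 higher at an unadjusted p under 0.05 (11.3% of all genes were). Most of these were dim. Over all genes with a mean signal at or below 5, 80.8% had a change above 0, and the members at or below 5 had 20 of 24 above 0 (83.3%). Changes above 0 were thus common among low signals. On several cyclases the rise lay mainly on DBP 3 and 4, the arrays low in spike-ins. With DBP 1 and 2 alone, Gucy1a2, Gucy2e, Gucy2g and Gucy2d changed by -0.025, 0.02, 0.045 and 0.05. With DBP 3 and 4 alone, they changed by 0.38, 0.32, 0.29 and 0.335. Gucy1a1, Gucy1b1 and Gucy2f were higher with DBP 1 and 2 alone than with DBP 3 and 4 alone. Gucy2c, a membrane receptor cyclase, read 5.38, 5.32, 5.56 and 5.46 in DBP, against 5.31, 5.27, 5.03 and 5.31 in vehicle (difference 0.20, adjusted p 0.237, groups apart by 0.01). Gucy1a1 and Gucy1b1 encode the alpha and beta subunits of the nitric oxide receptor cyclase. Gucy1a1 averaged 10.35 ± 0.14 in DBP and 10.38 ± 0.11 in vehicle (SD, n = 4 each). Gucy1b1 read 8.53, 8.49, 8.20 and 8.20 in DBP, against 8.22, 8.28, 8.20 and 8.24 in vehicle, high on DBP 1 and 2, the arrays high in red cell transcripts, and at the vehicle level on DBP 3 and 4 (difference 0.12, adjusted p 0.462). Gucy2f, a retinal cyclase, had the lowest signal of the 9, at 3.48 ± 0.11 in DBP and 3.42 ± 0.06 in vehicle.

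None of the 15 A-kinase anchors passed the adjusted test, and 2 were lower at an unadjusted p under 0.05 (7.84% of all genes were). Akap9, a centrosome and Golgi anchor, read 8.19, 8.35, 8.24 and 8.09 in DBP, against 8.47, 8.48, 8.41 and 8.43 in vehicle, apart by group with a difference of -0.23 (95% interval -0.37 to -0.09, adjusted p 0.121). Its dimmer probe set was scattered, from 4.29 to 6.91 over the DBP arrays and 5.23 to 6.04 over the vehicle arrays, and the mean of both Akap9 probe sets differed by -0.08 (adjusted p 0.858). Akap5 read 5.02, 4.79, 4.70 and 4.63 in DBP, against 5.03, 5.06, 5.30 and 4.95 in vehicle (difference -0.30, adjusted p 0.168), with DBP 1 inside the vehicle range. Akap1, which anchors PKA to mitochondria, read 8.13, 8.17, 7.87 and 8.13 in DBP, against 8.19, 8.32, 8.25 and 8.20 in vehicle (difference -0.17, adjusted p 0.277). Its 2 other probe sets differed by -0.27 and -0.15, with DBP 3 lowest on all 3. Akap8, a nuclear anchor, read 9.39, 9.44, 9.20 and 9.28 in DBP, against 9.50, 9.43, 9.45 and 9.48 in vehicle (difference -0.14, adjusted p 0.292). With DBP 1 and 2 alone, Akap9 differed by -0.18, Akap5 by -0.18 and Akap8 by -0.05 (limma adjusted p 0.229, 0.463 and 0.73). With DBP 3 and 4 alone, they differed by -0.28, -0.42 and -0.225 (limma adjusted p 0.033, 0.0306 and 0.0475). Akap12, the anchor of highest signal, averaged 11.41 ± 0.15 in DBP and 11.53 ± 0.07 in vehicle (SD, n = 4 each). Its second probe set read 9.54, 9.57, 9.15 and 9.19 in DBP, against 9.58, 9.66, 9.57 and 9.64 in vehicle, a difference of -0.25 (adjusted p 0.232) with DBP 3 and 4 lowest.

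The anchors of the sperm tail were high on DBP 4 alone. Akap4, the main fibrous sheath protein of the sperm tail, read 4.18, 4.13, 4.23 and 5.17 in DBP, against 3.97, 4.21, 4.18 and 4.22 in vehicle. Akap3, its partner in the sheath, read 4.60, 4.48, 4.58 and 5.37 in DBP, against 4.40, 4.59, 4.38 and 4.54 in vehicle. Pde4dip, which is named for its binding to phosphodiesterases and is not one, read 5.09, 5.16, 5.22 and 6.16 in DBP, against 5.24, 5.07, 5.11 and 5.09 in vehicle. On the representing probe sets of these 3 genes DBP 4 lay more than 0.5 above every other array. No other array did so on that of any member. Each of the 3 changed by 0.28, and without DBP 4 the change was 0.04 for Akap4, 0.08 for Akap3 and 0.03 for Pde4dip. The second, dimmer Pde4dip probe set read 5.10, 4.62, 4.64 and 5.56 in DBP, against 4.64, 4.62, 4.74 and 4.63 in vehicle. It differed by 0.32 (limma adjusted p 0.356), and there DBP 1 was above the vehicle range as well as DBP 4. Akap14, found in sperm tails and cilia, changed by 0.16 with DBP 4 and by 0.02 without it. Adcy10, the soluble cyclase needed for sperm motility, read 4.24, 4.10, 4.09 and 4.60 in DBP, against 4.16, 4.09, 4.14 and 4.20 in vehicle. Its change was 0.11 with DBP 4 and -0.004 without it. DBP 4 is the array with the spermatid transcripts, and their part in these members' values was not tested.

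**Figure D5:**
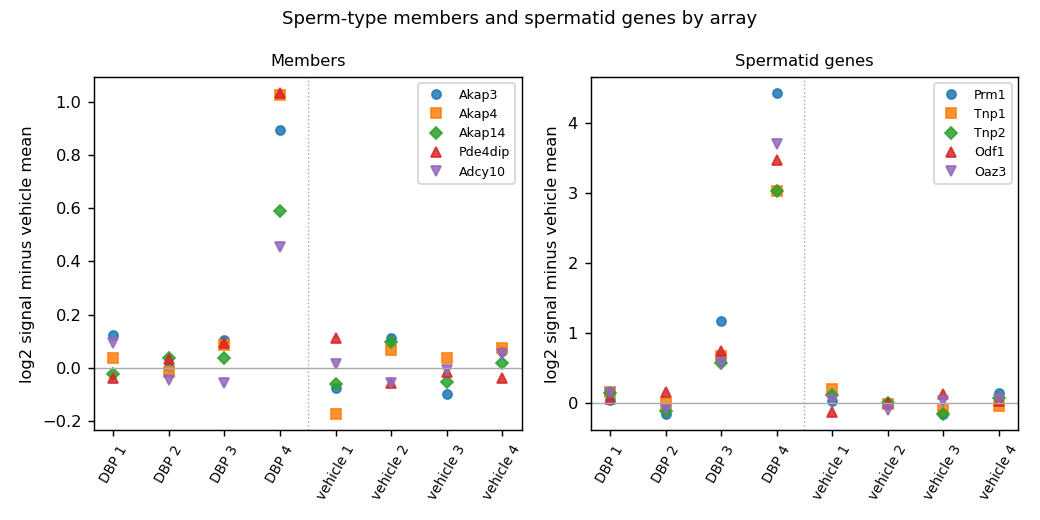
Log2 signal minus the vehicle mean on each of the 8 arrays, for 5 members (left) and 5 spermatid genes (right), DBP arrays left of vehicle arrays. DBP 4 stands above all other arrays in both panels, at 5.17 against 3.97 to 4.22 in vehicle for Akap4.

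None of the 18 genes under the Rgs prefix passed the adjusted test, none had groups apart, and the median change was 0.06. Rgs17, which acts on inhibitory G proteins, read 5.74, 5.54, 5.75 and 5.70 in DBP, against 5.54, 5.59, 5.36 and 5.24 in vehicle (difference 0.25, adjusted p 0.184), with DBP 2 inside the vehicle range. Of its 4 other probe sets, 2 differed by 0.21 and 0.19 and 2 by 0.05 and -0.02. Rgs2, of highest signal under the prefix, differed by 0.03, Rgs4 by 0.13 and Rgs5, a pericyte and smooth muscle marker, by 0.06 (adjusted p 0.81, 0.453 and 0.647). Rgs1, of lowest signal, averaged 3.19 ± 0.10 in DBP and 3.14 ± 0.07 in vehicle. Rgs14 read 4.83, 4.93, 5.20 and 5.44 in DBP, against 4.91, 4.94, 4.98 and 4.92 in vehicle, so DBP 3 and 4 were above the vehicle range and DBP 1 below it (difference 0.16, adjusted p 0.466).

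Another 91 genes, of the pathway or near it, were followed too. They were receptors coupled to the stimulatory G protein or to others, G protein subunits, cGMP sources, cyclic nucleotide binders, kinase inhibitors and substrates, and efflux pumps. They were chosen with earlier results of these data known, so their shares are not a finding about the pathway. Of the 91, 77 were measured and 2 passed the adjusted test, both higher (2.6%, against 0.598% of all genes). At an unadjusted p under 0.05, 13 were higher and 5 lower, where 11.3% of all genes were higher and 7.84% lower. Gnrhr, the receptor of gonadotropin-releasing hormone, read 7.73, 7.33, 7.02 and 7.98 in DBP, against 5.73, 5.96, 6.12 and 5.76 in vehicle. Every DBP value was more than 0.5 above every vehicle value, with a log2 change of 1.62 ± 0.18 (SE), or 3.08-fold, and a limma adjusted p of 0.00377. Nppc, the C-type natriuretic peptide that raises cGMP through the receptor cyclase Npr2, read 7.89, 8.39, 8.24 and 8.40 in DBP, against 7.21, 6.79, 6.11 and 6.14 in vehicle, a change of 1.67 ± 0.23 (SE), or 3.18-fold (adjusted p 0.00919). Both stayed past the threshold with any 1 array left out. Gnrhr has 2 probe sets, and the one used is of a type that can match several transcripts. With such probe sets left out, Nppc was called and Gnrhr was not. Pln, a PKA substrate of muscle calcium stores, differed by 0.40 (adjusted p 0.055), and Gng2, a G protein gamma subunit, by 0.24 (adjusted p 0.106). The atrial peptide Nppa differed by 0.31 (adjusted p 0.134) and the adenosine receptor Adora2a by 0.26 (adjusted p 0.161). Lhcgr, the luteinising hormone receptor, read 9.99, 10.21, 9.99 and 10.14 in DBP, against 10.33, 10.25, 10.36 and 10.22 in vehicle, lower on every DBP array with a difference of -0.21 (adjusted p 0.17).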

How the data were processed

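Total RNA of fetal rat testes was labelled and hybridised to 8 Affymetrix arrays, 4 DBP and 4 vehicle. The values the authors deposited are log2 signals, and the submitters' processing notes name RMA without a version. Such averaging background-corrects, quantile-normalises and summarises probes, which compresses changes of dim genes. Probe sets were named by the platform annotation: 20826 of 31042 had 1 symbol, 436 several and 9780 none, and 57 control probe sets were set aside. Each gene was represented by its probe set of highest mean over the 8 arrays. Groups were compared with limma 3.58.1 (R 4.3.3) on all 31042 probe sets, without covariates, two-sided, with Benjamini-Hochberg adjustment and a threshold of 0.05. In simulated data of this size, 95 of 100 probe sets changed by 1 and 71 of 100 changed by 0.5 were called, with 6 false calls. The simulation gave both groups the same independent noise, while the DBP arrays were more spread than the vehicle arrays. Its rates may therefore not hold for these arrays. Members with the 16 smallest p-values, a set of testis genes and the ends of each role's range were described by name. Rgs14, Akap3, Akap14, Pde4dip, Pde4c, Pde6h, Gucy1a2, Gucy2d, Gucy2e, Gucy2g, Hba-a3, Plvap and Lhcgr were chosen after their values were seen. Members and lists were chosen with earlier results of these data known. Precision is limited by the number of arrays. Pde11a, which shares its probe sets with another symbol, was not analysed here. Alternatives covered filters, scaling, the prior, array weights, covariates, probe set choice and leaving out arrays.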

Additional observations from a re-analysis of the deposited data

Results flagged for a closer look

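Within each group of 4 arrays, a member was singled out when its highest or lowest array lay far from the other 3 relative to the group's range (beyond Dixon's 95% critical value). This held for 11 of 164 groups, 6 in DBP and 5 in vehicle, and chance alone gives about 1 in 20 groups, or 8.2. DBP replicate 4 accounted for 4 of them, all high: Pde4dip at 6.16, Akap3 at 5.37, Akap4 at 5.17 and Akap14 at 4.67. In DBP, Akap1 was also low in replicate 3 at 7.87 and Gnas high in replicate 2 at 13.15. In vehicle, Gnas was high in replicate 2 at 13.19, Rgs5 high in replicate 2 at 7.31, Akap10 high in replicate 1 at 8.33, Akap4 low in replicate 1 at 3.97, and Gucy2c low in replicate 3 at 5.03. Several of these gaps are small in size, such as 0.03 for Gnas in vehicle.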

How the results depend on the processing

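The count of members past the threshold, 1 in the fit reported, was small enough to move under most settings. It was 2 with a mean signal above 5, with quantile normalisation, with a trended robust prior, with a term for low spike-ins, with DBP replicates 1 and 2 only and with the mean over a gene's probe sets. The low spike-in term marked exactly DBP 3 and 4, so its estimates equal those of DBP 1 and 2 only and are not a separate check. It was 3 above the median signal, with array weights and at an adjusted p under 0.1, 11 with DBP replicates 3 and 4 only, and 0 with the replicate block, with unmoderated statistics and without cross-matching probe sets, which removes the Prkar2b probe set. Leaving out 1 array gave 0 to 3 members. Partners numbered 2, against 12 with DBP replicates 3 and 4 only and 0 with unmoderated statistics. They numbered 1 (Nppc) without cross-matching probe sets and stayed at 2 with 1 array left out. All probe sets past the threshold numbered 331, against 175 with the replicate block, 577 with DBP replicates 1 and 2 only, 4129 with DBP replicates 3 and 4 only, 74 with unmoderated statistics, 820 at an adjusted p under 0.1 and 82 to 606 with 1 array left out. Of the 331, 130 were higher and 201 lower in DBP, against 158 and 159 after arrays were shifted to the same median. The causes were not tested. Same-numbered arrays of the 2 groups did not deviate together (r between -0.0756 and 0.108). So few correlations, on arrays that differ in other ways, cannot show that the numbers do not pair samples. With the replicate block, Prkar2b had a limma adjusted p of 0.0896 and was not called. None of the 16 members with the smallest p changed sign under any of these alternatives, while 12 of the other genes followed did in at least 1. The 16 were picked by p on these same arrays, which favours a steady sign in advance. This contrast is therefore no support for them. Signal over background limits the members with a mean at or below 5.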

Other observations

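The spermatid genes on DBP replicate 4 covered several parts of the late germ cell programme. The transition protein Tnp1 read 5.64, 5.49, 6.16 and 8.52 in DBP, against 5.68, 5.47, 5.38 and 5.44 in vehicle. Odf1, of the outer dense fibres, read 4.93, 5.04, 5.62 and 8.36 in DBP, against 4.75, 4.88, 5.0 and 4.91 in vehicle. Oaz3, a germ cell antizyme, reached 7.60 on DBP 4, against 3.78 to 3.94 in vehicle, and the spermatid histone Hils1 reached 7.11, against 3.52 to 3.66 in vehicle. All 14 genes of the list were highest on DBP 4, but the list was drawn up after its values were seen, so this count is no separate support. None of the 14 passed an adjusted p of 0.05 with limma, while 1 had an unadjusted p under 0.05. The markers of earlier germ cells did not share this: 4 of 9 were measured, and their mean was 7.40, 7.37, 7.18 and 7.36 in DBP, against 7.33, 7.27, 7.28 and 7.29 in vehicle.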
